A study of Mus musculus with 95 samples.

Results

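The regions described here are the RING1B peaks of wild-type mouse embryonic stem cells that share at least 1 bp with a PCGF1 peak of the same cells. They number 587 of the 5454 wild-type RING1B peaks and are called shared regions below. They were selected on the wild-type RING1B and PCGF1 peak lists, so their RING1B and PCGF1 values in wild-type cells are a description and were not tested. With only peaks of −log10 q of at least 10 in both lists, 69 regions were shared. The other RING1B peaks lack a PCGF1 peak in the wild-type list, and many had one in other lines. The PCGF1 list of Pcgf1-/- cells held 15 peaks against 736 in wild-type, and 8 shared regions overlapped a PCGF1 peak called in the cells that lack PCGF1. All 8 lay in 1 stretch of the X chromosome, described below, and the other 579 did not overlap such a peak.

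The series compared E14 embryonic stem cells lacking different PCGF proteins by ChIP-seq and RNA-seq, to find which binding sites and genes depend on which of them. E14 cells and derivatives were kept feeder-free on gelatin; the medium held serum, LIF and compounds that block GSK3β and MEK1/2. The knockouts Pcgf1-/-, Pcgf2/4-/-, Pcgf3/5-/-, Pcgf6-/-, Pcgf1/2/4-/- and Pcgf3/5/6-/- were Cas9-edited clones of E14, those lacking several genes having been edited again from single-knockout clones, so a difference between lines is also a difference between clones. PCGF1 was further mapped in Ezh1/2-/- cells, which lack both catalytic subunits of Polycomb repressive complex 2 (PRC2), in a Ring1a-/- line with a floxed Ring1b and a tamoxifen-activated Cre, and in Ring1a/b-/- cells. Chromatin for PCGF1 was fixed with EGS before formaldehyde, and fly chromatin was added to the histone mark samples, a spike-in whose scaling was not used here. RNA-seq had 2 libraries per line. ChIP-seq had 1 sample per line and antibody, apart from 2 samples each of RING1B and H2AK119ub1 in Pcgf1/2/4-/-, so shares of regions carry 95% Wilson intervals that cover counting error only, and differences between ChIP samples have no replicate check.

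Each form of Polycomb repressive complex 1 (PRC1) pairs RING1A or RING1B, the enzymes that attach ubiquitin to a lysine of histone H2A (the mark H2AK119ub1), with a single PCGF protein. PCGF1 joins RING1B to KDM2B, which binds unmethylated CpG dinucleotides through its CXXC domain, and to BCOR. PCGF2 and PCGF4 (BMI1) sit in canonical PRC1, which is brought to chromatin by CBX proteins that read H3K27me3, the mark laid by PRC2 and its subunit SUZ12, while PCGF6 works with MGA and E2F6.

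Sequence at the centre of PCGF1 binding is shown for 5 shared regions, chosen to cover different RING1B patterns in the knockouts (Plk5 and Hoxd9 have the same pattern and differ in wild-type PCGF6). Each is the 200 bases around the PCGF1 summit, plus strand, build NCBIM37 (mm9), with every CG in capitals. Plk5 had, with Pcdh8, the highest PCGF1 enrichment outside a stretch of the X chromosome described below (fold 12.82), and no RING1B peak in Pcgf1/2/4-/-. Neurog1 had wild-type PCGF6 and RING1B in every knockout sample. Hoxd9 had the strongest RING1B enrichment of the regions without a RING1B peak in either Pcgf1/2/4-/- sample. Mir1199 had no RING1B peak in Pcgf1-/-, and Runx3 had none in Pcgf2/4-/-. The windows are chr10:79819841-79820040 (Plk5), chr13:56352922-56353121 (Neurog1), chr2:74536149-74536348 (Hoxd9), chr8:86534830-86535029 (Mir1199) and chr4:134708899-134709098 (Runx3).
Plk5: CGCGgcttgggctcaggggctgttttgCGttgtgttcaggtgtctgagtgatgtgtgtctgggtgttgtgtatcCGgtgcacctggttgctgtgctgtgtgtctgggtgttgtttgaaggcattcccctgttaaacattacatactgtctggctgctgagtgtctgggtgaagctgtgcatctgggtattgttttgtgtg
Neurog1: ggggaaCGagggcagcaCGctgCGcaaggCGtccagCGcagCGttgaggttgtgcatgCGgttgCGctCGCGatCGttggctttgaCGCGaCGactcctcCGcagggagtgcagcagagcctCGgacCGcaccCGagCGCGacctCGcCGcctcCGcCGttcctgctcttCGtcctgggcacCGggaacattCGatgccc
Hoxd9: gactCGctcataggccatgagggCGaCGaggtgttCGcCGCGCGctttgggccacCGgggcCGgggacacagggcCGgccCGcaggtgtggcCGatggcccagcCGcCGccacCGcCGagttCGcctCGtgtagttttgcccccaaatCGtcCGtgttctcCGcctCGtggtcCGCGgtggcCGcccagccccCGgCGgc
Mir1199: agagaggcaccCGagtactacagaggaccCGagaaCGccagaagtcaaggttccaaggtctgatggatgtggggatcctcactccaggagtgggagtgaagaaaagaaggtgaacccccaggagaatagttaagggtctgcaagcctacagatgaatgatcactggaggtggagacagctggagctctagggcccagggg
Runx3: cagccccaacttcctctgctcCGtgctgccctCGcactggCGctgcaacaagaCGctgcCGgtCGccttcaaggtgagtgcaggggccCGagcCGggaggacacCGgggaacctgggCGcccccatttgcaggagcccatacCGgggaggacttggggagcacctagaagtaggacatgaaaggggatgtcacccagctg
These windows held 4 CG in 200 bases at Plk5, 27 at Neurog1, 27 at Hoxd9, 3 at Mir1199 and 11 at Runx3, so PCGF1 summits were not uniformly rich in CG. The Plk5 window lies inside the region chr10:79818643-79821096, whose RING1B summit falls in an intron 413 bp downstream of the gene start. The Neurog1 window, at 68.5% G and C, lies in chr13:56352391-56354780 with the RING1B summit in coding sequence. The Hoxd9 region, chr2:74534261-74539202, spans 4942 bp around the gene start.

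The shared regions were broad, strong and promoter-centred. Their median width was 2201 bp (range 237 to 15151) against 964 bp for the other 4867 RING1B peaks, and 390 of them (66.4%) fell in the widest of 4 equal width classes of RING1B peaks, at 1730 bp or more. The authors' fold enrichment of RING1B had a median of 17.97 at shared regions and 8.23 at the others, and that of PCGF1 had a median of 7.36 (range 4.16 to 17.87). One PCGF1 peak was found at 507 regions, 2 at 64, 3 at 11, 4 at 3 and 5 at 2. The RING1B and PCGF1 summits lay a median of 181 bp apart. Just inside the rule were the regions nearest Maff, Mir26b and Hfe2, which shared 84, 101 and 158 bp with a PCGF1 peak. Just outside were RING1B peaks nearest Foxe1, Mal and Nrbp2, which lay 182, 188 and 189 bp from one.

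A gene start lay inside 369 shared regions (62.9%) and within 2.5 kb of 493 (84.0%), against 42.9% and 72.8% of the other RING1B peaks. In 55 (9.37%, against 15.9% of the others) the nearest start was over 10 kb away. The RING1B summit fell in coding sequence in 235 regions (40.03%, against 24.5% of the others), in an intron in 173, between genes in 79, in an untranslated part of an exon in 76 and in a non-coding transcript's exon in 24. Chromosome 2 held 63 of them (10.7%, others 8.53%), chromosome 7 held 44 (7.50%, others 6.66%), and the X chromosome held 9 (1.53%, others 2.67%). In the 300 bases around the RING1B summit, the CG dinucleotide, which reads the same on both strands, occurred at a median of 9.0 per 100 bases in shared regions and 7.33 in the others. At least 1 CG was present in 99.8% of the shared windows and 99.96% of the others, so presence alone did not separate them. The ratio of observed to expected CG had a median of 0.833 against 0.739. Within the widest class the densities were 9.0 and 8.0, so the difference was smaller there. Median widths in that class still differed, at 2845 and 2258.5 bp.

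One stretch of 22.9 kb on the X chromosome, from 166414711 to 166437566 over G530011O06Rik and Mid1, stood apart from all other shared regions and held 8 of them. PCGF1 peaks were called at all 8 in Pcgf1-/- cells, PCGF2 peaks at all 8 in Pcgf2/4-/-, PCGF6 peaks at all 8 in Pcgf6-/- and PCGF3 peaks at 7 in Pcgf3/5-/-, that is, also where the antibody's target is missing. H3K36me3, the mark of transcribed gene bodies, was called at all 8 in wild-type and at 13 of the 587 shared regions, and RING1B was called at all 8 in each of the 7 knockout samples. The highest PCGF1 enrichment of any shared region, 17.87, belongs to this stretch. Without the 8, the member count was 579. No share of shared regions overlapped by a single RING1B, SUZ12 or H3K27me3 list moved outside its interval. This covers the first sample of each line, not combinations of lists or parts of the shared regions.

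In wild-type cells nearly every shared region carried the marks of PRC2 and of promoters. SUZ12 peaks were present at 583 of 587 (99.3%, interval 98.3 to 99.7), H3K4me3, the mark of active and poised promoters, at 578 (98.5%), PCGF2 at 538 (91.7%) and H3K27me3 at 523 (89.1%). The shares among the other RING1B peaks were 88.3%, 87.0%, 54.0% and 55.9%. H3K4me3 and H3K27me3 were both present at 515 shared regions (87.7%, interval 84.8 to 90.1) and at 48.5% of the others. H2AK119ub1 was called at 288 (49.1%) against 12.3%, in a wild-type list of 1741 peaks. Its share of shared regions was 18.2% with peaks of −log10 q of at least 10, and 10.9% with at least 50% of the region covered. Part of the differences between shared and other peaks went with width. Within the widest class, PCGF2 was present at 99.7% of shared and 98.3% of other peaks, while H2AK119ub1 was present at 58.5% and 29.7%.

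**Figure D1:**
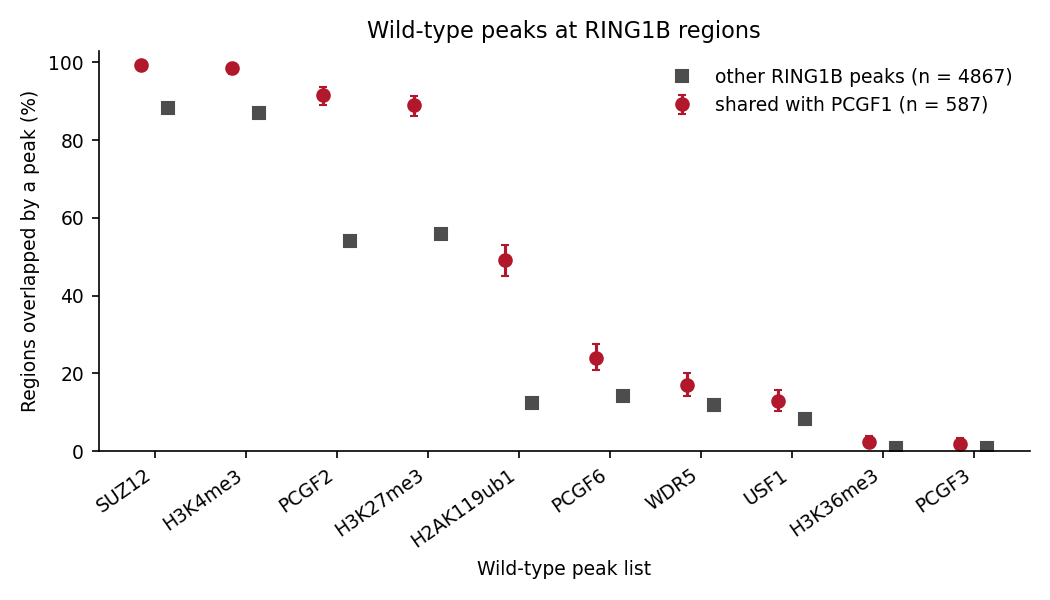
Share of regions, in percent on the vertical axis, that overlapped a wild-type peak of each list on the horizontal axis. Circles are the 587 shared regions with 95% Wilson intervals and squares the 4867 other RING1B peaks; H2AK119ub1, PCGF2 and H3K27me3 show the widest gaps, and PCGF3 and H3K36me3 lie near 0 in both.

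PCGF6 divided the shared regions. It was called at 141 (24.02%, interval 20.7 to 27.6; all RING1B peaks 15.2%), of which 136 also had PCGF2, while 402 had PCGF2 without PCGF6, 5 had PCGF6 without PCGF2, and 44 had neither. WDR5, a subunit of histone methyltransferase complexes, was called at 99 (16.9%; all RING1B peaks 12.4%), the E-box binding factor USF1 at 75 (12.8%; 8.75%) and PCGF3 at 11 (1.9%; 0.862%). PCGF6 peaks were narrow, with a median of 362 bp, and 3.75% of shared regions had PCGF6 over at least 50% of their length. The 141 PCGF6 regions had a median RING1B fold of 21.1 and 9.67 CG per 100 bases, against 16.8 and 8.67 in the 446 without it, and 70.9% of them had a gene start within 2.5 kb against 88.1%.

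Loss of PCGF1 left RING1B called at most shared regions. RING1B peaks of Pcgf1-/- cells overlapped 548 of 587 (93.4%, interval 91.0 to 95.1), against 82.5% of all wild-type RING1B peaks, and covered a median of 96% of each region. The authors' fold at these 548 had a median of 21.9, against 18.7 at the same regions in wild-type, on lists scaled separately. Among the widest peaks the share was 98.7% for shared and for other regions alike. The 39 shared regions without RING1B in Pcgf1-/- were narrow and weak in wild-type, with a median width of 1060 bp and a RING1B fold of 6.62. Of these 39, 17 (43.6%) had wild-type PCGF2 and 0 had PCGF6 (0 of 39 allows up to 9.0% by the interval), against 95.1% and 25.7% of the 548 others. SUZ12 was called in Pcgf1-/- at 38.5% of the 39 and at 98.0% of the 548, and H3K27me3 at 30.8% and 94.3%. The other RING1B peaks split alike, into 914 without RING1B in Pcgf1-/- and 3953 with it. There SUZ12 was called in Pcgf1-/- at 38.5% and 88.6%, and H3K27me3 at 47.7% and 85.7%. Wild-type PCGF2 was at 15.3% and 63.0% of them, and wild-type PCGF6 at 5.36% and 16.1%.

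Loss of PCGF2 and PCGF4 also left RING1B called at most shared regions, over less of their length. In Pcgf2/4-/- RING1B overlapped 565 (96.3%, interval 94.4 to 97.5; all RING1B peaks 70.6%), covering a median of 72% of the region, with a median fold of 9.71. Requiring at least 50% of the region to be covered gave 81.3%. Both lines had RING1B at 533 regions, Pcgf1-/- alone at 15, Pcgf2/4-/- alone at 32 and neither at 7. Of the other RING1B peaks, 60.4% had it in both, 20.9% in Pcgf1-/- alone, 7.11% in Pcgf2/4-/- alone and 11.7% in neither. Of the regions with RING1B in Pcgf2/4-/- but not in Pcgf1-/-, the strongest in wild-type lay at Tlx2, a homeobox gene, at Mir1199 and at Adamtsl5. Regions of the converse kind included those at Runx3, which encodes a transcription factor, and at Ctdspl. In Pcgf3/5-/- RING1B overlapped 572 (97.4%; all peaks 82.5%) and in Pcgf6-/- 561 (95.6%; all peaks 75.9%). All 4 of these lines had RING1B at 512 shared regions (87.2%, interval 84.3 to 89.7), against 43.7% of the other RING1B peaks.

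Joint loss of PCGF1, PCGF2 and PCGF4 gave another picture. RING1B overlapped 251 shared regions in the first Pcgf1/2/4-/- sample (42.8%, interval 38.8 to 46.8; all RING1B peaks 23.8%) and 225 in the second (38.3%, interval 34.5 to 42.3; all peaks 20.1%). Both samples had it at 196, 1 of them at 84 and neither at 307 (52.3%; other RING1B peaks 75.6%). Of the 512 regions with RING1B in all 4 single and double knockouts, 244 had none in either triple-knockout sample, which is 41.6% of shared regions and compares with 30.7% of the other peaks. The overlapping peaks were small. Only 12.4% of shared regions had at least 50% of their length covered in the first sample. The median fold at the 251 regions overlapped there was 6.89. In wild-type it was 17.97 over all 587, and 22.7 at the 196 with RING1B in both samples, on a list scaled separately. In Pcgf3/5/6-/- RING1B overlapped 498 (84.8%, interval 81.7 to 87.5; all peaks 46.8%), and 247 regions (42.1%; other peaks 31.7%) had it there but in neither Pcgf1/2/4-/- sample.

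**Figure D2:**
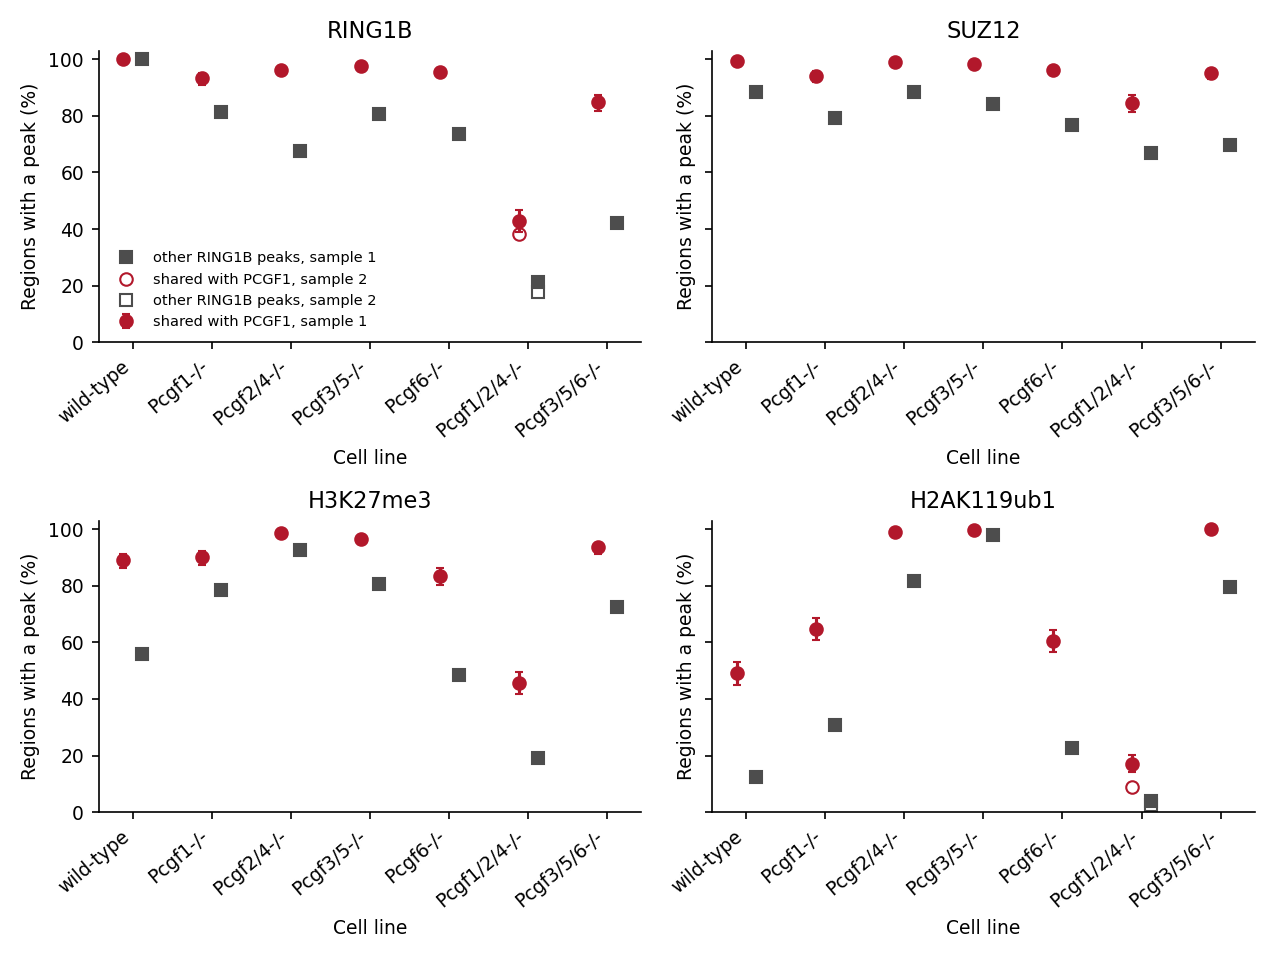
Share of regions, in percent, overlapped by RING1B, SUZ12, H3K27me3 and H2AK119ub1 peaks of each line. Filled circles are shared regions with 95% Wilson intervals, squares other RING1B peaks, open symbols the second Pcgf1/2/4-/- sample. At shared regions RING1B stays above 80% in each line but Pcgf1/2/4-/-, where it lies at 42.8% and 38.3%.

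Shared regions with and without wild-type PCGF6 differed in how many had RING1B in Pcgf1/2/4-/-. RING1B was called in both Pcgf1/2/4-/- samples at 116 of the 141 shared regions with wild-type PCGF6 (82.3%, interval 75.1 to 87.7). The same held for 80 of the 446 without PCGF6 (17.9%, interval 14.7 to 21.8). The other RING1B peaks were split the same way, with 75.7% of 687 and 5.0% of 4180. Of the 196 shared regions with RING1B in both samples, 116 had PCGF6 (59.2%) and 80 did not. By contrast, 12 of the 307 regions that had RING1B in neither sample had wild-type PCGF6 (3.9%), among them Hoxd9. Regions with PCGF6 were stronger in wild-type RING1B, and both groups were also split at the members' median fold. At or above it the shares were 79.8% of 89 and 34.1% of 208. Below it they were 86.5% of 52 and 3.78% of 238. For the other RING1B peaks they were 84.5% and 21.7% at or above it, and 74.5% and 3.34% below. This fold belongs to a list used for the selection, and its part in the contrast was not tested. Without the 8 regions of the X-chromosome stretch, all of which had PCGF6, the share over all shared regions with PCGF6 was 81.2%.

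**Figure D3:**
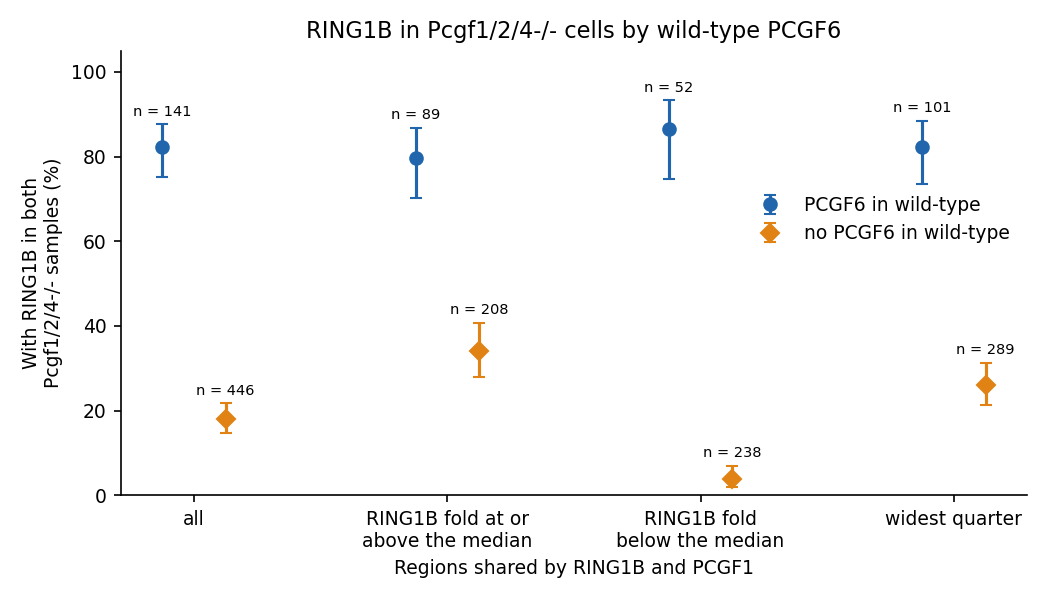
Share of shared regions, in percent, with RING1B in both Pcgf1/2/4-/- samples, for regions with wild-type PCGF6 (circles) and without it (diamonds). Bars are 95% Wilson intervals, which cover counting error only, and n is the number of regions. The gap is widest below the median RING1B fold, at 86.5% against 3.78%.

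In cells without PCGF6, RING1B stayed called at nearly all the shared regions that had PCGF6. It was called at fewer of the other RING1B peaks with PCGF6. In Pcgf6-/- RING1B was called at 134 of the 141 shared regions with wild-type PCGF6 (95.04%, interval 90.1 to 97.6), and at 35.7% of the 687 other RING1B peaks with PCGF6 (interval 32.2 to 39.3). In Pcgf3/5/6-/- the shares were 87.9% and 23.4%. PCGF2 accompanied PCGF6 at 136 of the 141 and at 303 of the 687. These groups also differed in strength and width. Wild-type RING1B fold lay below the members' median at 52 of the 141 and at 603 of the 687. The widest class held 101 of the 141 and 129 of the 687. What part PCGF2, fold or width plays was not tested. PCGF6 lists grew in other knockouts, to 5528 peaks in Pcgf1-/- and 12842 in Pcgf2/4-/- from 1868 in wild-type, and PCGF6 was called at 64.4% and 81.9% of shared regions there against 24.02%, and at 36.2% and 60.6% of all RING1B peaks against 15.2%; the wider lists and a gain at these regions cannot be told apart. In Pcgf6-/- the PCGF6 antibody still gave peaks at 4.9% of shared regions and at 1.58% of all RING1B peaks.

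PCGF1 itself was called at shared regions with or without PRC2. It overlapped 562 of 587 in Ezh1/2-/- (95.7%, interval 93.8 to 97.1; all RING1B peaks 50.8%; 4150 peaks in the list). PCGF2 was called there at 4 (0.7%, all RING1B peaks 0.202%) after 538 in wild-type (91.7%, all RING1B peaks 58.1%). PCGF1 was called at 84.2% in Pcgf2/4-/- (all RING1B peaks 26.4%) and at 90.6% in Pcgf6-/- (38.2%). It was called at 136 (23.2%; all RING1B peaks 3.39%) in Pcgf3/5-/-, whose list held 214 peaks. The floxed Ring1a-/- line had PCGF1 at 583 (99.3%; all RING1B peaks 80.6%), and Ring1a/b-/- cells at 179 (30.5%, interval 26.9 to 34.3; all peaks 9.04%), in lists of 12735 and 1091 peaks. PCGF2 fell from 83.1% to 0.7% between that pair of samples, and from 53.5% to 0.238% over all RING1B peaks. PCGF6 fell from 17.9% to 3.7%, and from 12.7% to 5.56% over all RING1B peaks. Regions with a PCGF1 peak in Ring1a/b-/- had 9.67 CG per 100 bases at the median and the rest 8.67. The other RING1B peaks were not free of PCGF1. It was called at 78.4% of them in the floxed line, 45.4% in Ezh1/2-/- and 31.8% in Pcgf6-/-.

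SUZ12 was more widely called than RING1B when both PCGF1 and PCGF2/4 were missing. It overlapped 552 shared regions in Pcgf1-/- (94.0%; all RING1B peaks 80.8%), 582 in Pcgf2/4-/- (99.1%; 89.6%), 577 in Pcgf3/5-/- (98.3%; 85.6%), 565 in Pcgf6-/- (96.3%; 78.8%) and 558 in Pcgf3/5/6-/- (95.1%; 72.4%). In Pcgf1/2/4-/- it overlapped 496 (84.5%, interval 81.3 to 87.2; 68.8%). There it was called at 73.0% of the 307 regions with RING1B in neither sample and at 97.4% of the 196 with RING1B in both. For the other RING1B peaks split the same way the shares were 65.0% and 67.5%. The SUZ12 list of that line held 5427 peaks and its RING1B lists 2051 and 1814. What part list size plays was not tested.

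H3K27me3 fell behind SUZ12 in that line. It was called at 529 in Pcgf1-/- (90.1%; all RING1B peaks 79.8%), 579 in Pcgf2/4-/- (98.6%; 93.3%), 566 in Pcgf3/5-/- (96.4%; 82.4%), 490 in Pcgf6-/- (83.5%; 52.4%) and 549 in Pcgf3/5/6-/- (93.5%; 74.8%). In Pcgf1/2/4-/- it was called at 268 (45.7%, interval 41.7 to 49.7; 21.9%), at 29.3% of the regions with RING1B in neither sample and at 69.4% of those with RING1B in both. For the other RING1B peaks split the same way the shares were 16.0% and 30.3%. The lists ranged from 3918 peaks in Pcgf1/2/4-/- through 8063 in wild-type to 112110 in Pcgf2/4-/-, and 12.1% of shared regions had at least 50% of their length covered in Pcgf1/2/4-/-, against 71.0% in wild-type. What part the number of peaks called plays in these shares was not tested.

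H2AK119ub1 lists differed most in size, from 1070 peaks to 128786, so shares across lines measure calling as well as the mark. The share of shared regions was 64.7% in Pcgf1-/- (all RING1B peaks 34.5%, 10882 peaks in the list), 98.8% in Pcgf2/4-/- (83.5%, 121944 peaks), 99.8% in Pcgf3/5-/- (98.1%, 128786 peaks) and 60.6% in Pcgf6-/- (26.7%, 5287 peaks). Every shared region had it in Pcgf3/5/6-/- (100%, 81.6%, 14353 peaks). In Pcgf1/2/4-/- it was called at 100 in the first sample (17.0%; all peaks 5.43%; 2202 peaks) and at 52 in the second (8.9%; 3.19%; 1070 peaks). The first of these lists was longer than the 1741 peaks of wild-type, in which 288 shared regions were marked. Of those 288, 250 were marked in Pcgf1-/-, 257 in Pcgf6-/- and 84 in the first Pcgf1/2/4-/- sample. The mark was called in that sample at 5.2% of the regions with RING1B in neither sample and at 36.7% of those with RING1B in both. For the other RING1B peaks split the same way the shares were 1.85% and 14.5%.

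The genes at the shared regions were little expressed in wild-type cells. A gene was assigned where a region lay within 2.5 kb of its start, which gave 471 genes. Their wild-type level per kilobase of exon had a median of 0.215 RPKM, and 109 had no wild-type count. Below 1 RPKM lay 339 (72.0%), against 46.5% of all counted genes. Genes nearest to other RING1B peaks were also low, with 64.9% below 1 RPKM and a median of 0.372. From a list of 70 developmental regulators, 32 were nearest to shared regions, among them Hoxa10, Hoxd9, Gata2, Gata3, Cdx2, Pax6, Neurog1 and En2, and 29 to other RING1B peaks. None of the 17 listed pluripotency genes, 18 germline genes or 10 PCGF1 complex subunits was nearest to a shared region. Nearest to other RING1B peaks were 1, 13 and 4 of them. Shared regions were assigned 471 of 21001 counted genes, so absence from such short lists says little.

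Libraries held 2147968 to 7848161 counts, and 306 of the 471 genes passed the filter on low counts and were tested. All tests are edgeR quasi-likelihood tests against wild-type with Benjamini-Hochberg adjustment over 15464 genes and a threshold of 0.05 (the 6 comparisons share the same 2 wild-type libraries). The wild-type pair was the most alike, with a chi-square per degree of freedom of 0.951 over all genes (p = 0.99998, chi-square test). Over the 4669 genes with intermediate counts it was 1.04 (p = 0.0404, chi-square test). The spread over all genes was no wider than counting gives, and the pair was kept as 2 libraries. With the 2 summed, median log2 fold changes at genes nearest to shared regions were 0.006, -0.37, 0, 0.39, 0.33 and 1.35. With both kept they were 0.010, -0.41, 0, 0.36, 0.25 and 1.16, with lines ordered as at the start. No label says that the libraries of a line came from separate cultures, so p-values measure only the spread between these libraries. In bulk RNA, fewer cells of a type and less RNA per cell cannot be told apart. Embryonic stem cell markers, 8 genes, summed to 1573 and 1582 CPM (counts scaled to the library total) in wild-type and 7 fibroblast markers to 15.0 and 10.8. Among the targeted transcripts, Pcgf1 was at 66.1 and 61.0 CPM in wild-type, 4.81 and 3.20 in Pcgf1-/- and 0.534 and 0.903 in Pcgf1/2/4-/-, and Pcgf6 had 0 counts in Pcgf6-/-. Pcgf2 transcripts were as abundant in the libraries labelled Pcgf2/4-/- (41.0 and 54.8 CPM) and Pcgf1/2/4-/- (57.1 and 56.9) as in wild-type (42.9 and 48.9), and Pcgf6 was at 42.0 and 37.2 CPM in Pcgf3/5/6-/- against 36.2 and 34.3. Bmi1 was at 12.1 and 14.1 CPM in Pcgf2/4-/- and 13.9 and 19.9 in Pcgf1/2/4-/- against 16.1 and 14.2. Pcgf3 was at 11.4 and 12.8 in Pcgf3/5-/- and 13.6 and 13.5 in Pcgf3/5/6-/- against 16.4 and 15.5, while Pcgf5 was at 5.48 and 4.60 and at 16.4 and 13.5 against 12.98 and 10.8. Of these, Pcgf5 in Pcgf3/5-/- passed the test and the others did not, so every line is named here as its label gives it. Counts over a whole gene do not check a small edit, and PCGF2 peaks were called at 3.1% of shared regions in Pcgf2/4-/-.

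In Pcgf1-/- 74 of the 306 genes rose (24.2%; all genes tested 13.9%) and 58 fell (19.0%; 18.4%). Genes nearest to other RING1B peaks rose in 20.4% and fell in 22.0% of cases. The 2-cell-like markers summed to 12.5 and 3.66 CPM here against 103.7 and 101.97 in wild-type, and the primitive endoderm markers to 54.9 and 43.7 against 97.0 and 88.2. Their part in the result was not tested. Hoxa10, a posterior Hox gene, stood at 3.71 and 4.22 CPM in wild-type and 24.7 and 19.7 in Pcgf1-/-, without overlap (log2 fold change 2.498 ± 0.24 SE, adjusted p = 6.37e-06, edgeR). Amn, which encodes a partner of cubilin in vitamin B12 uptake, went from 5.71 and 5.06 CPM to 32.5 and 32.2 (log2 2.58 ± 0.20). Tmem63a, an ion channel gene, went from 5.42 and 5.06 CPM to 29.2 and 23.8 (log2 2.35 ± 0.26). The transcription factor gene Gata3 fell from 12.7 and 13.8 CPM to 3.83 and 2.51 (log2 -1.97 ± 0.23, adjusted p = 3.08e-05, edgeR). G530011O06Rik, at the X-chromosome stretch, fell from 33.1 and 32.1 CPM to 8.74 and 8.46 (log2 -1.91 ± 0.16). RING1B was called in Pcgf1-/- at the regions of all 5 genes. Without the first Pcgf1-/- library 49 genes rose, and without the second, or without the second wild-type library, 34 fell.

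In the libraries labelled Pcgf2/4-/- 29 genes rose (9.48%; all genes 8.1%) and 77 fell (25.2%; 13.5%). Genes nearest to other RING1B peaks gave like shares, 8.55% raised and 24.5% lowered. The 2-cell-like markers summed to 53.6 and 52.9 CPM here, against 103.7 and 101.97 in wild-type. Embryonic stem cell markers summed to 2675 and 1547 CPM, against 1573 and 1582. The part of these marker sums in the result was not tested. Hoxa10 rose again, to 25.1 and 26.7 CPM (log2 2.71 ± 0.25, adjusted p = 1.13e-05, edgeR). The neural transcription factor gene Sox21 rose from 5.14 and 3.09 CPM to 15.1 in both libraries (log2 1.87 ± 0.26) and Car11, of the carbonic anhydrase family, from 7.56 and 8.86 to 18.01 and 27.5 (log2 1.54 ± 0.26). Bmp8b, a BMP ligand gene, fell from 4.71 and 5.63 CPM to 0.419 and 0.767 (log2 -2.88 ± 0.48). Kif26a, which encodes an atypical kinesin, had 3 counts left against 46, or 9.02% of its wild-type CPM (1.79% to 28.0%, exact, counting error only). The pair of libraries of this line differed most, with a chi-square per degree of freedom of 21.3 over genes. Without the first, 46 genes rose, and without the second 14; without the first wild-type library 15 rose.

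In Pcgf3/5-/- 52 genes rose (17.0%; all genes 11.1%) and 37 fell (12.1%; 10.4%), and of genes nearest to other RING1B peaks 19.6% rose and 13.9% fell. The 2-cell-like markers summed to 14.6 and 15.9 CPM here and the trophectoderm markers to 319 and 297, against 230 and 244 in wild-type. Their part in the result was not tested. Adamtsl5 rose from 3.14 and 2.39 CPM to 16.0 and 12.8 (log2 2.39 ± 0.25), the epithelial transcription factor gene Grhl2 from 2.57 and 2.67 to 11.1 and 10.2 (log2 2.02 ± 0.22), and the adrenoceptor gene Adra2b from 2.28 and 1.41 to 7.75 and 6.90 (log2 1.99 ± 0.32). Epas1, which encodes the hypoxia factor HIF-2α, fell from 7.28 and 10.5 CPM to 2.14 and 2.30 (log2 -2.003 ± 0.38). Dsp, the desmoplakin gene, fell from 4.71 and 4.22 to 1.74 and 1.92 (log2 -1.29 ± 0.41), a call lost in 5 of 11 alternatives. Without the first Pcgf3/5-/- library 29 genes rose, without the second 16 fell, and without the first or the second wild-type library 23 and 20 fell; without the second wild-type library 34 rose.

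In Pcgf6-/- 101 genes rose (33.0%; all genes 27.8%) and 61 fell (19.9%; 18.6%). Of genes nearest to other RING1B peaks, 49.6% rose and 15.6% fell. The split depended on the scaling. With cyclic loess offsets 74 rose and 104 fell, and the median log2 fold change of these genes went from 0.36 to -0.19, so no direction of the group as a whole is given. Grhl2 rose to 68.7 and 66.3 CPM (log2 4.68 ± 0.18, adjusted p = 3.56e-10, edgeR), Igf2, the growth factor gene, from 0.571 and 1.13 to 21.7 and 21.1 (log2 4.62 ± 0.29), and the stress response gene Gadd45g from 1.71 and 2.39 to 27.5 and 24.1 (log2 3.64 ± 0.23). Cdx2, a regulator of trophectoderm and hindgut, fell from 71.1 and 77.8 CPM to 4.61 and 6.13 (log2 -3.80 ± 0.16, adjusted p = 4.52e-10, edgeR), while Mdga1 fell from 6.56 and 5.49 to 0.622 and 0.613 (log2 -3.24 ± 0.40). Marker sums of other cell states moved in this line. The 5 markers of the 2-cell-like state summed to 103.7 and 101.97 CPM in wild-type and 463 and 511 here, and the 8 of primitive endoderm to 97.0 and 88.2 against 295 and 284, with 5 of these 8 at 0 counts in wild-type. The 7 trophectoderm markers, which include Cdx2 and Gata3, summed to 230 and 244 in wild-type and 461 and 475 here. Their part in the result was not tested. Without the second Pcgf6-/- library 38 genes fell.

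In Pcgf1/2/4-/- 73 genes rose (23.9%; all genes 14.4%) and 35 fell (11.4%; 22.6%). The median log2 fold change was 0.25 at these genes and -0.11 over all genes tested, and DESeq2, whose median over all genes was 0, gave 88 raised and 24 lowered, while cyclic loess offsets gave 96 and 26. Its size factors alone, in edgeR, gave 76 and 29. Of genes nearest to other RING1B peaks, 13.9% rose and 17.8% fell. Plk5, a polo-like kinase gene, rose from 2.85 and 2.39 CPM to 31.0 and 31.6 (log2 3.57 ± 0.40, adjusted p = 2.14e-05, edgeR). It stood at 12.7 and 7.77 in Pcgf1-/- (log2 2.02 ± 0.41) and at 0.419 and 2.17 in Pcgf2/4-/-, where it did not pass the test. Hoxa10 rose to 43.2 and 47.4 CPM (log2 3.51 ± 0.25, adjusted p = 6.76e-07, edgeR), with both libraries above those of Pcgf1-/- and Pcgf2/4-/-, and Igf2 to 5.87 and 8.58 (log2 3.07 ± 0.44). Neither triple-knockout sample had RING1B at the regions of Plk5 and Hoxa10. Gm1673 had 1 count, or 2.90% of wild-type (exact interval 0.0729% to 16.5%), Rassf3 had 2 against 87, or 7.94% (0.947% to 29.6%), and Amn, raised in Pcgf1-/-, fell to 1.60 and 0.903 CPM (log2 -2.12 ± 0.47, lost without the second Pcgf1/2/4-/- library).

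Trophectoderm markers summed to 410 and 467 CPM in Pcgf1/2/4-/- and embryonic stem cell markers to 3215 and 2945. The 2-cell-like markers summed to 23.0 and 18.1 CPM there, against 103.7 and 101.97 in wild-type. The part of these marker sums in the result was not tested.

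Genes at regions that had no RING1B call in Pcgf1/2/4-/- rose more often. Of 182 tested genes whose region had RING1B in neither sample, 54 rose (29.7%) and 18 fell, and of 88 whose region had it in both, 10 rose (11.4%) and 13 fell. The medians of the log2 fold change were 0.35 and -0.02. The difference between these groups of genes was not tested, and was in the same direction under each of the 11 alternatives, with shares from 13.99% against 4.85% without the second Pcgf1/2/4-/- library to 48.5% against 26.0% with only the 2 groups compared. Without that library 36 genes rose in all and 13 fell. Without the first Pcgf1/2/4-/- library 17 fell, and without the first or second wild-type library 21 and 22 fell.

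In Pcgf3/5/6-/- 170 genes rose (55.6%; all genes 28%) and 33 fell (10.8%; 25.3%), with a median log2 fold change of 1.16 against 0.05 over all genes. With cyclic loess offsets 126 rose and 43 fell, and the median was 0.57. Igf2 rose to 274 CPM in both libraries (log2 8.29 ± 0.24, adjusted p = 6.72e-11, edgeR), and Cdkn1c, which encodes the cell cycle inhibitor p57, from 2.43 and 2.67 CPM to 130 and 123 (log2 5.62 ± 0.23). Adra2b rose to 54.0 and 50.4 (log2 4.81 ± 0.27). Hoxa10 had 2 counts against 56, which is 8.23% of its CPM in wild-type (0.972% to 31.1%, exact), Sox21 fell to 0.632 and 0.676 CPM (log2 -2.61 ± 0.57) and the neurofilament gene Nefl from 174 and 170 to 35.1 and 34.1 (log2 -2.31 ± 0.15). RING1B was called in this line at the regions of Hoxa10, Sox21, Igf2 and Cdkn1c. Of genes whose region had RING1B in Pcgf3/5/6-/-, 135 of 245 rose (55.1%, median log2 fold change 1.33), and of the rest 35 of 62 (56.5%, median 0.81), a difference that was not tested. Of the tested genes nearest to other RING1B peaks, 58.8% rose. Trophectoderm markers, 7 genes, summed to 230 and 244 CPM in wild-type and 1304 and 1332 here, and primitive endoderm markers to 320 and 325. The 2-cell-like markers summed to 285 and 281 CPM here, against 103.7 and 101.97 in wild-type. The part of these marker sums in the result was not tested. Without the second Pcgf3/5/6-/- library 18 genes fell.

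**Figure D4:**
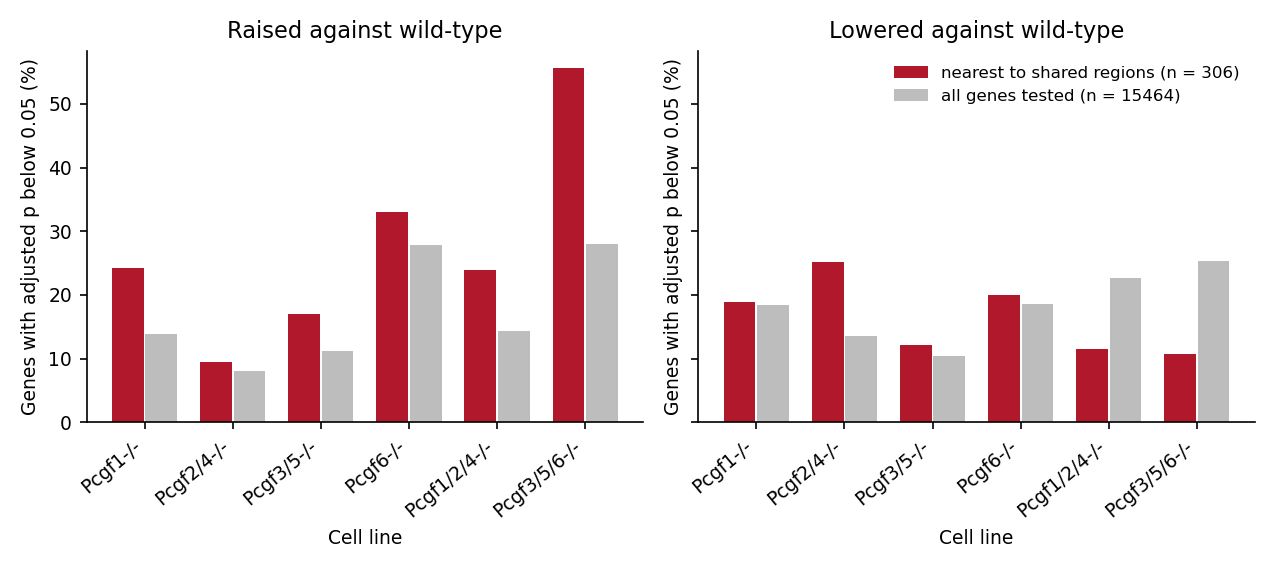
Percentage of genes that rose (left) or fell (right) against wild-type at an adjusted p below 0.05, for the 306 tested genes nearest to shared regions and for all 15464 genes tested, by line. The bars for shared regions reach 55.6% raised in Pcgf3/5/6-/- and 25.2% lowered in Pcgf2/4-/-, against 28% and 13.5% of all genes.

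Among the 32 developmental regulators at shared regions, 16 were tested. In Pcgf1/2/4-/- 8 rose and 1 fell, in Pcgf3/5/6-/- 10 and 4, in Pcgf6-/- 5 and 4, in Pcgf1-/- 4 and 4, in Pcgf2/4-/- 2 and 1, and in Pcgf3/5-/- 2 and 2. Over all 42 tested regulators of the list the counts were 18 and 5, 17 and 13, 11 and 15, 13 and 6, 11 and 5, and 5 and 7, in the same order of lines. Single genes went different ways in different lines. Hoxd9 was at 0.428 and 0.141 CPM in wild-type and rose to 10.1 and 8.58 in Pcgf1/2/4-/- (log2 4.93 ± 0.50, adjusted p = 2.15e-05, edgeR), and it stood at 0.219 and 0.229 in Pcgf1-/-. Gata3, lowered in Pcgf1-/-, rose to 45.9 and 53.7 CPM in Pcgf1/2/4-/- (log2 1.91 ± 0.18) and 96.4 and 95.3 in Pcgf3/5/6-/- (log2 2.85 ± 0.17). Cdx2, with PCGF6 and RING1B in every knockout sample, fell in Pcgf1-/-, Pcgf6-/-, Pcgf1/2/4-/- and Pcgf3/5/6-/- and rose in Pcgf3/5-/- (log2 0.53 ± 0.11).

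**Figure D5:**
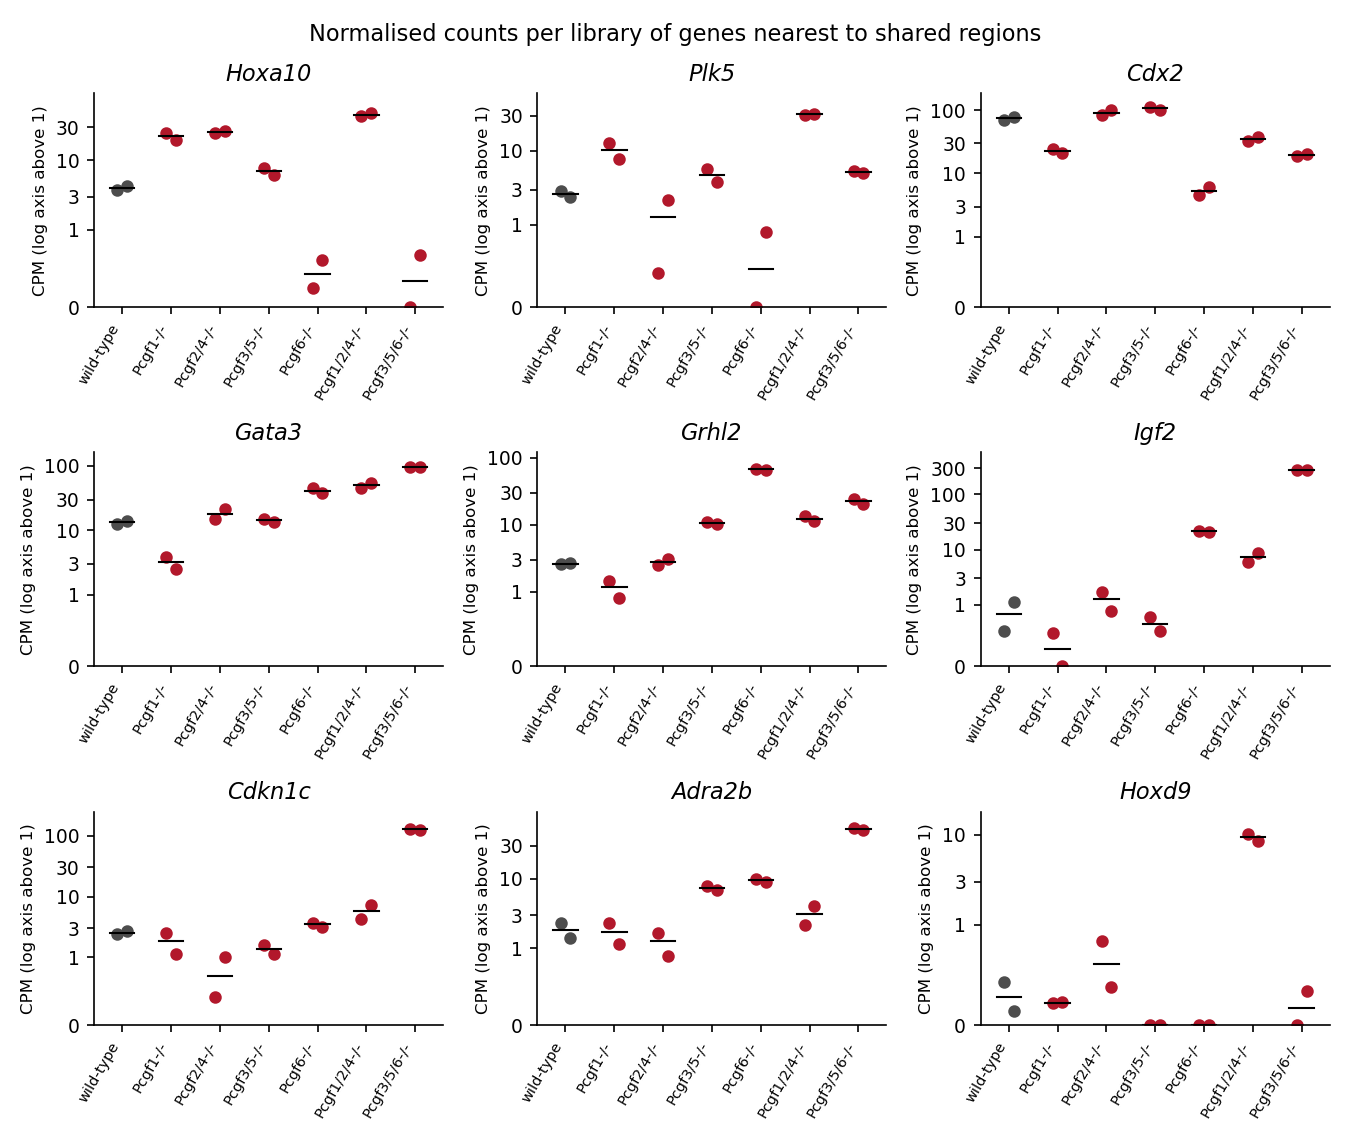
CPM of 9 genes nearest to shared regions, 1 point per library, 2 libraries per line, bars at the mean; the vertical axis is linear below 1 and logarithmic above. Hoxa10 lies near 4 in wild-type, above 19 in Pcgf1-/-, Pcgf2/4-/- and Pcgf1/2/4-/- and below 1 in Pcgf6-/- and Pcgf3/5/6-/-, while Igf2 reaches 274 in Pcgf3/5/6-/-.

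Whether the counting used strand is not given in the sources used here, so genes that overlap others are less certain. Igf2 (Igf2as, Mir483), Gata3, Nefl (Nefm), Bmp8b (Oxct2b, Ppie), G530011O06Rik (Mid1), Grhl2, Sox21, Mdga1, Tmem63a and Dsp each overlap an annotated gene.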

How the data were processed

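Peak lists and 1 table of gene counts from 95 samples were used as deposited; 64 peak lists and 14 RNA-seq libraries entered here. Each peak's fold enrichment (a ratio over control) and its −log10 q-value and −log10 p-value are the authors' own, per the file headers. They were used only to describe, group and filter peaks. Where folds of different lists stand side by side, the lists were scaled separately. The read counts per gene were deposited unnormalized by the authors. The submitters' processing notes name mm9, bcl2fastq 2, TopHat2 2.1.1, Bowtie 1.2.2, Picard 1.62, HTSeq 0.7.2, DESeq2 3.7 and MACS2 2.1.1, with no role given. Peak ends fitted the chromosome lengths of the NCBIM37 (mm9) reference.

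Overlapping peaks within a list were merged, and overlap meant at least 1 bp. A gene was assigned where its start lay within 2.5 kb. Of 23377 symbols in the count table, 21001 were in the annotation. Counts were tested with edgeR 4.0.16 (R 4.3.3): TMM factors, the default filter on low counts (15464 genes), 1 model over 7 groups of 2 libraries, quasi-likelihood tests against wild-type and Benjamini-Hochberg adjustment with a threshold of 0.05. The scripts were tested on simulated data. Libraries held 2147968 to 7848161 counts, which sets the precision for low genes. An exact permutation test of 2 libraries against 2 cannot reach the threshold. Genes named per line are the 3 raised and 3 lowered genes of largest change among those called, whose mean log2 CPM (prior count 2) reached 2 and whose knockout libraries both lay outside the wild-type pair. Developmental regulators and regions with particular RING1B fates were named besides. Alternatives were DESeq2 1.42.0, its size factors in edgeR, cyclic loess offsets (limma 3.58.1), no filter, fewer libraries, a replicate block, coverage of 50% of a region a −log10 q of at least 10, and shares without the regions called for PCGF1 in Pcgf1-/-. Summing the wild-type libraries, and splitting the PCGF6 comparison by RING1B fold and by width, were chosen after seeing the data. The members and lists were chosen with earlier results of these data known. Genes on chromosome 18 that the rule names, and some other genes and regions, are not reported here.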

Additional observations from a re-analysis of the deposited data

How the results depend on the processing

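Peak shares moved with the rule for a call. With at least 50% of a region covered, RING1B shares were 88.8% in Pcgf1-/-, 81.3% in Pcgf2/4-/-, 94.0% in Pcgf3/5-/-, 93.5% in Pcgf6-/-, 12.4% in Pcgf1/2/4-/- and 72.7% in Pcgf3/5/6-/-. SUZ12 shares were then 89.6%, 97.8%, 96.3%, 93.4%, 67.1% and 91.0% in the same order. H3K27me3 shares were 84.3% in Pcgf1-/-, 92.0% in Pcgf3/5-/-, 55.7% in Pcgf6-/-, 12.1% in Pcgf1/2/4-/- and 88.1% in Pcgf3/5/6-/-, and H2AK119ub1 shares were 35.9% in Pcgf1-/-, 94.7% in Pcgf2/4-/-, 31.9% in Pcgf6-/- and 1.70% in Pcgf1/2/4-/-. In wild-type that rule gave 85.7% for PCGF2, 3.75% for PCGF6, 71.0% for H3K27me3, 10.9% for H2AK119ub1, 71.6% for H3K4me3, 3.75% for WDR5 and 0.852% for USF1.

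With peaks of −log10 q of at least 10 only, 69 regions were shared when both lists were filtered. Filtering the other list gave RING1B at 89.9% in Pcgf2/4-/-, 95.1% in Pcgf3/5-/-, 30.2% in Pcgf1/2/4-/- and 78.5% in Pcgf3/5/6-/-. SUZ12 was then at 90.8% in Pcgf1-/-, 96.4% in Pcgf3/5-/-, 94.2% in Pcgf6-/-, 76.5% in Pcgf1/2/4-/- and 91.0% in Pcgf3/5/6-/-. H3K27me3 was at 87.4% in Pcgf1-/-, 94.4% in Pcgf3/5-/-, 62.4% in Pcgf6-/- and 18.9% in Pcgf1/2/4-/-, and H2AK119ub1 at 51.1% in Pcgf1-/-, 38.3% in Pcgf6-/- and 7.16% in Pcgf1/2/4-/-. In wild-type PCGF2 was at 87.7%, PCGF6 at 11.2%, H3K27me3 at 68.8%, H2AK119ub1 at 18.2%, H3K4me3 at 96.9% and WDR5 at 5.96%, and PCGF1 in Pcgf1-/- at 0.511%. Without the regions called for PCGF1 in Pcgf1-/-, PCGF1 there was at 0%, wild-type PCGF3 at 0.518%, H3K36me3 at 0.864% and H2AK119ub1 in Pcgf3/5-/- at 100%. Without Pcgf1/2/4-/- replicate 1, RING1B was at 38.3% and H2AK119ub1 at 8.86%.

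Counts of genes depended on single libraries. Leaving out each library in turn gave 49 to 77 raised and 34 to 42 lowered genes in Pcgf1-/-, 14 to 46 and 59 to 73 in Pcgf2/4-/-, 29 to 51 and 16 to 30 in Pcgf3/5-/-, 83 to 89 and 38 to 45 in Pcgf6-/-, 36 to 54 and 13 to 22 in Pcgf1/2/4-/-, and 152 to 167 and 18 to 27 in Pcgf3/5/6-/-. Where a line was left with 1 library, it was assumed to vary like the other groups. Fitting only the 2 groups compared gave 34 lowered in Pcgf1-/-, and 9 raised and 45 lowered in Pcgf2/4-/-, with fewer samples to estimate the spread. Cyclic loess offsets gave 104 lowered in Pcgf6-/-, and the cause was not tested. The replicate block gave 72 raised and 52 lowered in Pcgf1-/-, 25 and 75 in Pcgf2/4-/-, 49 and 33 in Pcgf3/5-/-, 101 and 60 in Pcgf6-/-, 69 and 33 in Pcgf1/2/4-/-, and 170 and 31 in Pcgf3/5/6-/-, so no count moved by 1.5 times. Deviations of same-numbered libraries correlated from -0.46 to 0.38 over 21 pairs of groups. Pcgf1-/-, Pcgf3/5-/- and Pcgf6-/- correlated positively with each other (0.38, 0.22 and 0.20) and negatively with Pcgf2/4-/- (-0.46, -0.40 and -0.24). Since not every pair was positive and no label ties the numbers to a batch, the numbers were not taken to pair the libraries.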

Other observations

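PCGF1 fold, a value of a list used for the selection, went with some of the other readouts and with width. Split by PCGF1 fold into groups of 196, 195 and 196 shared regions, from lowest to highest, RING1B was called in Pcgf1-/- at 90.3%, 94.4% and 95.4%. H2AK119ub1 was called in wild-type at 38.3%, 52.3% and 56.6%, and PCGF1 in Ring1a/b-/- at 22.4%, 30.3% and 38.8%. Median width over the same groups was 1998.5, 2221 and 2393 bp, and its part was not tested. These shares are descriptions of 1 sample per line, with no test.

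Of the 306 tested genes, 70 (22.9%) rose in no line, against 45.0% of all genes tested, and 154 (50.3%) fell in none, against 46.9%.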
